A study of Aspergillus aculeatus with 24 samples.

Results

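The 80 gene IDs described here had lower read levels in BCC199, a strain of the filamentous fungus Aspergillus aculeatus, than in the strains BCC56535 and HUT2365, in every library, medium and day. They were chosen from the 8615 IDs of the deposited table by their measured values. For each ID a score was taken, the log2 of the lowest of the 16 BCC56535 and HUT2365 libraries minus the log2 of the highest of the 8 BCC199 libraries. An ID was considered if its mean was at least 100 in both BCC56535 and HUT2365. In each of these strains, its mean over both days in wheat bran-soybean medium also had to lie within 2-fold of that in glucose. Of the 3899 IDs that met these conditions, the 80 with the highest score form the set. The file gives IDs without gene names, and 0 of the 8615 matched any of the 11152 RefSeq genes of assembly Aspac1, so no function or sequence can be attached to a member.

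RNA was sequenced from mycelium of the 3 strains, grown on glucose or on wheat bran-soybean medium and harvested on day 3 or day 6, with 2 libraries (replicates A and B) for each of the 12 combinations. The series text compares strains of unequal ability to break down plant material, in a control medium and in one that induces cellulases. The labels give no genotype beyond the strain name. They call the replicates biological but name no separate cultures, and a p-value here reflects only how far these libraries scatter, possibly for technical reasons. The libraries held 19248977 to 30003709 reads, and 152 to 245 IDs had 0 reads in a given library. Levels are deposited values, that is, read counts normalized between libraries plus a constant of 1, so a level of 1 stands for 0 reads. In bulk mycelium, fewer expressing cells and less RNA per cell cannot be told apart. No source used here names the genome against which the reads of each strain were counted, so a lower transcript level and a lower share of reads assigned to an ID cannot be told apart either.

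Aspergillus species secrete enzymes that break down plant cell walls. In Aspergillus, glucose represses many of the genes for these enzymes through carbon catabolite repression, whereas plant material such as wheat bran induces them. Strains of a species can also differ in genes whose transcripts do not follow the carbon source. The present set was chosen so that the mean over both days changed less than 2-fold with the medium in BCC56535 and in HUT2365. A response on a single day, or in opposite directions on the 2 days, could still pass. The score took the libraries of both media, so the difference from BCC199 was present in both media by the choice itself.

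The gap between BCC199 and the other strains chose the members and is given as a description, without a test. Every BCC199 library lay below all 16 other libraries for each of the 80 members. The same held for 154 of the 3899 IDs considered (3.95%) and for 281 of all 8615 IDs (3.26%). Of the 127 such IDs that were not considered, 117 changed at least 2-fold with the medium in BCC56535 or HUT2365, and 34 had a mean under 100 in at least 1 of these strains. When the same conditions were turned to the other strains, 127 of 3753 IDs (3.38%) lay below all other libraries in BCC56535 and 151 of 4009 (3.77%) in HUT2365.

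**Figure D1:**
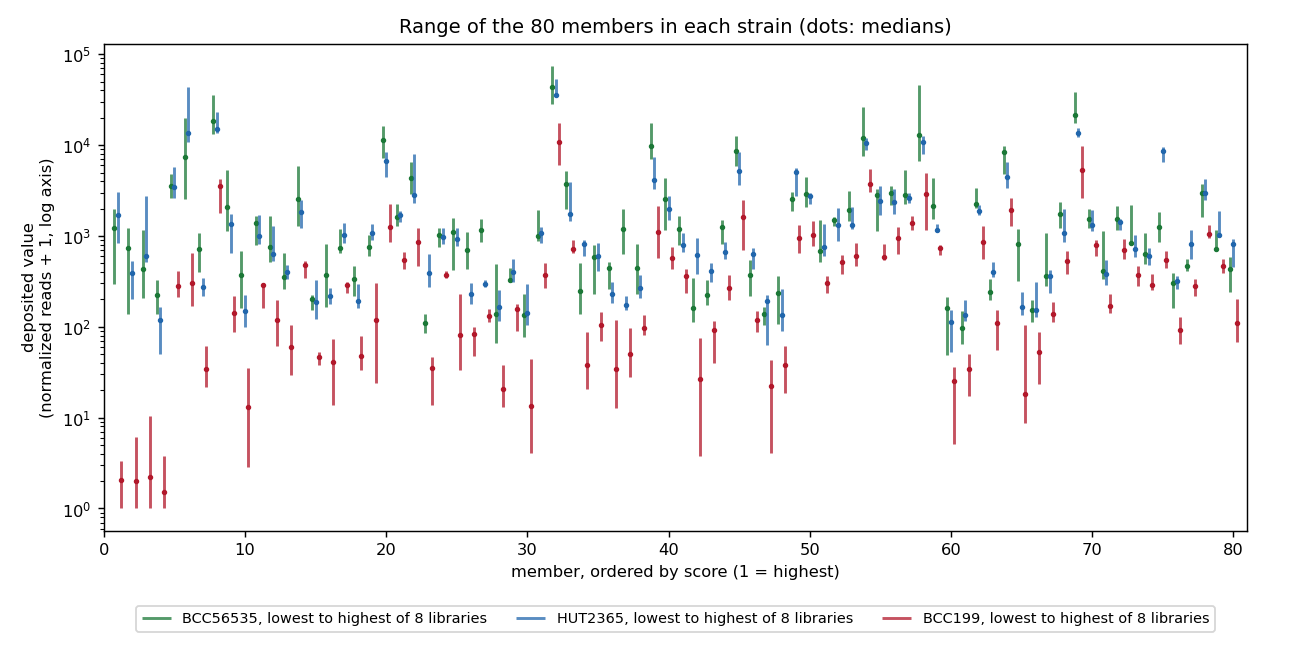
Lowest to highest level (lines) and median (dots) of each of the 80 members over the 8 libraries of each strain, in normalized reads plus 1 on a log axis, ordered by score. The 4 members at the left lay between 1 and 10.3 in BCC199, and the BCC199 line lies below both others for every member.

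Most members were still well detected in BCC199. Their mean level in BCC199 ran from 1.80 to 11520 with a median of 262, against medians of 1002 in BCC56535 and 886 in HUT2365. In BCC199, 12 members had a mean of at least 1000, 42 lay between 100 and 1000, 22 lay below 100 with at least 137 reads over the 8 libraries, and 4 had fewer than 50 reads in all. Of the 80, 74 had a mean at least 2-fold higher in both other strains, 29 at least 4-fold and 6 at least 10-fold. For the 76 members other than the 4 with few reads, the mean was 1.71-fold to 27.0-fold higher in BCC56535 (median 4.06-fold) and 1.67-fold to 49.0-fold higher in HUT2365 (median 3.60-fold). The set is therefore mainly one of reduced rather than missing reads.

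The 4 members with few reads in BCC199 also had the 4 highest scores. acu01389_1 had the highest score, 6.48. Its level in the BCC199 libraries was 1 at the lowest, 2.06 at the median and 3.34 at the highest, from 9 reads in all, with 0 reads in 2 libraries. In BCC56535 it ran from 298 to 1990 with a median of 1233, and in HUT2365 from 834 to 3036 with a median of 1695. The groups lie far apart, with the nearest libraries separated 89.1-fold. From summed reads, the ratio to BCC199 was 1040 for BCC56535 (95% exact binomial interval 548 to 2280) and 1690 for HUT2365 (891 to 3700). These intervals cover counting error only.

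acu07091_1 came second, with a score of 4.49 and 10 reads over the 8 BCC199 libraries, 5 of them in 1 library of wheat bran-soybean on day 3. Its level in BCC199 ran from 1 to 6.16 with a median of 2.03, against 139 to 1219 (median 742) in BCC56535 and 204 to 525 (median 396) in HUT2365. The ratio was 563 (interval 306 to 1170) for BCC56535 and 319 (173 to 666) for HUT2365. This member was higher in BCC56535 than in HUT2365 at the median, while acu01389_1 was the reverse. In the test of these strains described further on, acu07091_1 was lower in BCC56535 in glucose on day 3 and higher in each other condition. acu01389_1 passed only in glucose on day 6, where it was lower in BCC56535. The 2 other members of this kind, acu00370_2 and acu07062_1, were picked once their values were known. acu00370_2 had 20 reads in BCC199, as 3 and 4 on day 3 and 4 and 9 on day 6 in glucose, and 0 in each of the 4 wheat bran-soybean libraries. acu07062_1 had 7 reads, as 2 and 1 on day 3 and 3 and 1 on day 6 in glucose, and again 0 in each wheat bran-soybean library. Their few BCC199 reads thus came from glucose. A count of 0 allows up to 3 reads per library, or 2.37 to 4.48 in normalized reads. The reads of acu07062_1 did not exceed 3 in any library, whereas those of acu00370_2 reached 9, a level of 10.3, in glucose on day 6 (replicate B). In the test of the BCC199 medium effect described further on, acu00370_2 was lower in wheat bran-soybean on day 6 (adjusted p = 0.0092, limma) and did not pass on day 3 (adjusted p = 0.053), and acu07062_1 passed on neither day (adjusted p = 0.11 and 0.054).

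The members with the highest levels were not silent in BCC199. acu05995_1 had the highest mean in BCC199 and over the other strains. It ran from 6060 to 17630 (median 10950) in BCC199, from 28470 to 74210 (median 44180) in BCC56535 and from 34530 to 53430 (median 35900) in HUT2365. Its nearest libraries were a wheat bran-soybean library of each of BCC199 and BCC56535, on day 6. acu03508_1, next highest over the other strains, ran from 1774 to 4271 (median 3556) in BCC199, against 13250 to 35930 (median 18390) in BCC56535 and 13550 to 23240 (median 15150) in HUT2365. acu00312_2, next highest in BCC199, ran from 2596 to 9826 (median 5272), against 17660 to 38780 in BCC56535 and 12450 to 15470 in HUT2365. The means of these members were 2.33-fold to 6.34-fold higher in the other strains, a difference of degree and not of presence or absence. The smallest was acu00312_2 in HUT2365, and the nearest libraries of this ID were 1.27-fold apart.

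**Figure D2:**
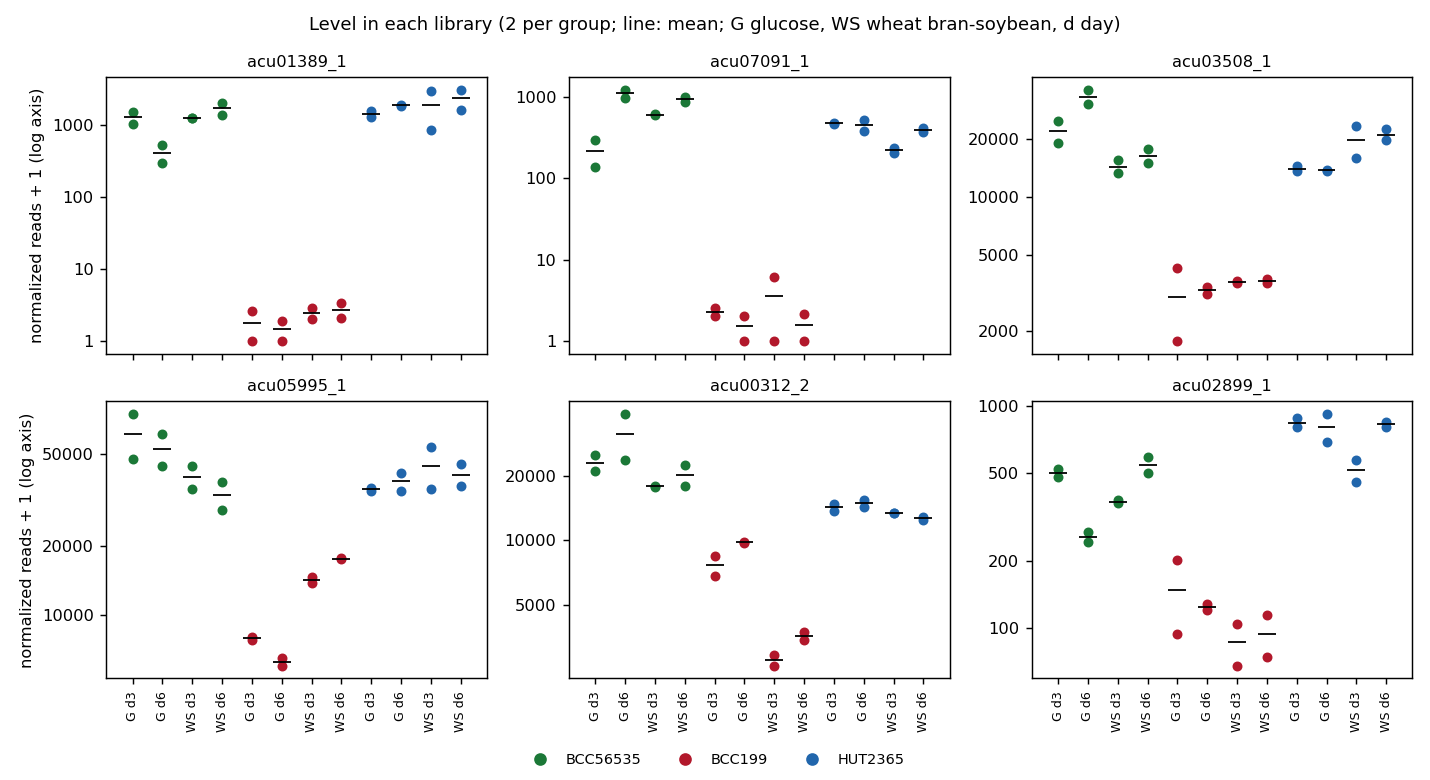
Level of 6 members in each library (normalized reads plus 1, log axes of different range), by strain, medium and day, with the mean of the 2 libraries as a line. acu01389_1 and acu07091_1 are near 1 in BCC199, whereas acu05995_1 rises and acu00312_2 falls in BCC199 from glucose to wheat bran-soybean while both stay below the other strains.

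At the edge of the set the gap was small. The last members inside were acu03706_1 (score 0.287) and acu02899_1 (0.280), and the first IDs outside were acu07615_1 (0.274) and acu01667_1 (0.262). acu03706_1 ran from 387 to 553 in BCC199, and its lowest value elsewhere was 675. acu02899_1 ran from 67.4 to 202 in BCC199, with a lowest value elsewhere of 245. The scores on both sides of the edge form a continuous series, and 62 of the 80 members were separated by less than 2-fold between the nearest libraries.

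Among the 16 BCC56535 and HUT2365 libraries, the lowest value of the members did not lie in any single strain or group. The lowest of the 16 other libraries belonged to BCC56535 for 42 members and to HUT2365 for 38, and the most frequent group was HUT2365 in wheat bran-soybean on day 6, with 18 members. The highest of the BCC199 libraries was a glucose library for 50 members and a wheat bran-soybean library for 30. The median fold of BCC56535 over BCC199 was 3.42 in glucose on day 3, 3.91 in glucose on day 6, 4.83 in wheat bran-soybean on day 3 and 4.55 in wheat bran-soybean on day 6. For HUT2365 over BCC199 the medians in the same order were 3.50, 3.68, 4.29 and 3.81. In each of the 4 conditions, 66 to 76 of the 80 members were at least 2-fold higher than in BCC199.

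Of the 80 members, 5 (6.25%) share their number prefix with another ID, against 1009 of all 8615 IDs (11.7%). No source used here says what a prefix means, and reads shared between IDs of a prefix could not be separated. acu00312_2 was lower in BCC199, but acu00312_1 was at like levels in all strains. acu00312_1 ran from 13160 to 21950 (median 15490) in BCC199, from 10880 to 23150 (median 17390) in BCC56535 and from 15830 to 23740 (median 18620) in HUT2365, and the 3 ranges overlap. acu00160_2 ran from 70.0 to 146 in BCC199, against 227 to 791 in BCC56535 and 413 to 828 in HUT2365. For acu00160_1 the ranges overlapped widely, from 144 to 6725 in BCC199, 132 to 22230 in BCC56535 and 483 to 12030 in HUT2365. None of the 6 IDs that share a prefix with these 5 members lay below all other libraries in BCC199. Their scores ran from -5.67 to -1.01.

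The rule did not use the response of BCC199 itself to the medium, which was therefore tested (limma on log2(value + 1), all 24 libraries in a single fit, Benjamini-Hochberg adjustment over 8509 IDs). The rule did cap the highest BCC199 library, which favours IDs that vary little in this strain, so a share of calls below that of all IDs is read with this limit. In BCC199 on day 3, relative to glucose, wheat bran-soybean gave 6 members at a higher and 21 at a lower level, and 53 did not pass the threshold. Over all 8509 IDs 51.1% were called, 24.6% as higher and 26.5% as lower, against 7.5% and 26.2% of the members. On day 6, 6 members were higher and 19 lower, where 41.3% of all IDs were called, 19.9% as higher and 21.4% as lower, against 7.5% and 23.8% of the members. Among the 3899 IDs that met the level and medium conditions, 48.3% were called on day 3 (23.6% higher and 24.7% lower) and 34.2% on day 6 (15.2% and 19%). Members lower in wheat bran-soybean were thus about as frequent as among all IDs, and members higher in it were fewer. The median log2 change of the members was -0.13 on day 3 and -0.20 on day 6, against 0 and -0.02 over all IDs. On day 6 the count of called members fell below 25 whichever of the libraries compared was left out.

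Over both days, 37 of the 80 members (46.2%) were called on at least 1 day and 43 (53.8%) on neither, against 61.3% and 38.7% of all IDs. On at least 1 day 8 members (10%) were higher and 29 (36.2%) lower, where the shares of all IDs were 30.3% and 31.7%. On both days 4 (5%) were higher and 11 (13.8%) lower, against 14.1% and 16.2% of all IDs. The place of BCC199 below the other strains, which the rule fixed, is thus constant over media, while the level within BCC199 changed with the medium for some members.

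**Figure D3:**
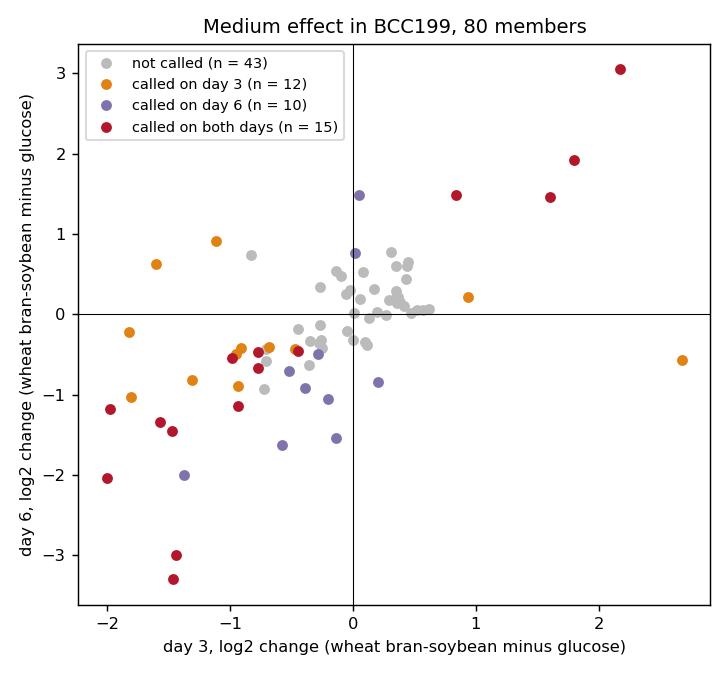
Log2 change of each of the 80 members from glucose to wheat bran-soybean in BCC199 on day 3 (horizontal) and day 6 (vertical), with members past adjusted p 0.05 in colour. The 11 members lower on both days lie at the lower left and the 4 higher on both days at the upper right.

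acu00673_1 had the largest rise in BCC199 on day 3 among the members that met the naming rule. It stood at 11.4 and 19.5 in glucose and at 104 and 97.3 in wheat bran-soybean (log2 change 2.68, SE 0.35, adjusted p = 6.7e-06, limma). On day 6 it was back at 8.68 and 17.4 in wheat bran-soybean, against 14.8 and 23.8 in glucose, and did not pass (log2 change -0.57, adjusted p = 0.2). The rise was therefore seen on day 3, and the medium effect differed between the days (log2 difference -3.25, adjusted p = 0.00044).

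acu02293_1 was the other ID named as rising on day 3, from 61.5 and 140 to 164 and 196 (log2 change 0.94, SE 0.34, adjusted p = 0.028). Without the glucose day 3 replicate A its log2 change was 0.36 (adjusted p = 0.42, limma). It also did not pass without the wheat bran-soybean replicate A or B (adjusted p = 0.058 and 0.14), with voom weights (0.077) or with only these 4 libraries (0.19). On day 6 acu05995_1 rose from 6060 and 6545 to 17630 and 17540 (log2 change 1.48, SE 0.26, adjusted p = 0.00019), and on day 3 from 8045 and 7831 to 13850 and 14630 (log2 change 0.84, adjusted p = 0.011). The replicates were close and the media did not overlap on either day. acu03766_1 rose on day 6 from 239 and 253 to 400 and 437 (log2 change 0.77, SE 0.21, adjusted p = 0.0066), and stood at 421 and 312 in glucose and 374 and 361 in wheat bran-soybean on day 3 (adjusted p = 0.96). The difference of its medium effect between the days did not pass (log2 difference 0.75, adjusted p = 0.12, limma). When replicate B of wheat bran-soybean on day 6 was left out, the rise of acu03766_1 did not pass (log2 change 0.70, adjusted p = 0.053, limma).

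More members fell than rose in BCC199. On day 6 acu00959_1 fell from 277 and 303 in glucose to 24.03 and 33.8 in wheat bran-soybean (log2 change -3.30, SE 0.26, adjusted p = 3.6e-08, limma), and on day 3 from 159 and 242 to 65.0 and 76.7 (log2 change -1.46, adjusted p = 0.00016). acu00175_2 fell on day 6 from 119 and 102 to 13.1 and 12.7 (log2 change -3.003, SE 0.31, adjusted p = 9.5e-07). Both fell on each day, and by more on day 6. On day 3 acu04319_1 fell from 229 and 196 to 67.0 and 42.1 (log2 change -1.98, SE 0.30, adjusted p = 3.2e-05), and acu01932_1 from 2503 and 2428 to 704 and 694 (log2 change -1.82, SE 0.22, adjusted p = 3.1e-06). acu04319_1 also fell on day 6 (log2 change -1.18, adjusted p = 0.0041), whereas acu01932_1, at 1796 and 1718 in glucose and 1540 and 1474 in wheat bran-soybean, did not pass on that day (adjusted p = 0.45). In none of these groups did the media overlap where the change passed. In BCC56535 and HUT2365 the rule held the means of the same IDs over both days within 2-fold between media, so no medium effect was tested there. This does not bound the change on a single day. In BCC56535 on day 6, for example, acu04319_1 stood at 504 and 418 in glucose and at 1053 and 1162 in wheat bran-soybean.

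The rule set no direction between BCC56535 and HUT2365, and these were compared next. It did favour IDs whose lowest value was high in both, which limits large differences. In glucose on day 3, 25 members were higher and 11 lower in BCC56535 (53.9% of all IDs were called, 27.6% higher and 26.3% lower). In glucose on day 6, 25 were higher and 13 lower (52.2% of all IDs, 26% and 26.3%). In wheat bran-soybean 20 were higher and 13 lower on day 3 (55.6% of all IDs, 28.2% and 27.4%), and 21 were higher and 12 lower on day 6 (52.3% of all IDs, 26% and 26.3%). Among the 3899 IDs that met the level and medium conditions, 46.6% were called in glucose on day 3 (23.6% higher and 23% lower) and 45.7% on day 6 (23.3% and 22.4%). In wheat bran-soybean 51.5% of them were called on day 3 (25.5% and 26%) and 46.5% on day 6 (25.8% and 20.7%). The members called amount to 41.2% to 47.5%, a lower share than over all IDs in each of the 4 comparisons. Beside the 3899 IDs the share was lower in wheat bran-soybean. In glucose it was near theirs, at 45% against 46.6% on day 3 and 47.5% against 45.7% on day 6. Members higher in BCC56535 were near the background share or above it, and members higher in HUT2365 were fewer than it, at 13.8% to 16.2%. The median log2 difference of the members was 0.21 and 0.26 in glucose on day 3 and day 6, and 0.07 and 0.20 in wheat bran-soybean. The count for glucose on day 3 moved from 36 to 22 without the BCC56535 day 3 replicate A, and to 19 or 21 without the HUT2365 day 3 replicate A or B. With only the 4 libraries compared, the count for wheat bran-soybean on day 3 was 19 in place of 33.

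**Figure D4:**
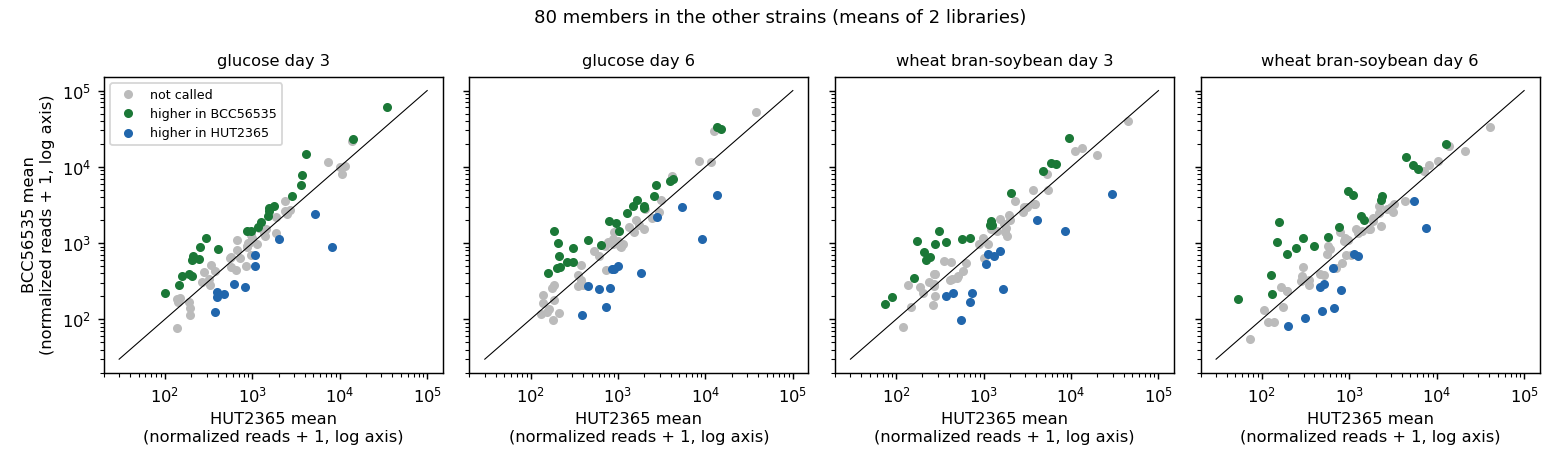
Mean level of each of the 80 members in BCC56535 (vertical) against HUT2365 (horizontal), in normalized reads plus 1 on log axes, for each medium and day, with a line of equal level. Members past adjusted p 0.05 are coloured by the strain in which they were higher; more lie above the line than below it in each panel.

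Over the 4 conditions, 6 members (7.5%) were higher in BCC56535 in each and 4 (5%) were higher in HUT2365 in each, against 8.2% and 8.58% of all IDs. In different conditions 4 members (5%) were called in opposite directions, against 13.9% of all IDs, and 13 (16.2%) were called in none, against 12.8%. acu06849_1 was the member that differed most towards HUT2365 on day 3 and day 6 in glucose. Its level was 857 to 1840 (median 1259) in BCC56535 and 6572 to 9498 (median 8555) in HUT2365, and 440 to 687 (median 546) in BCC199. The 3 strains were thus separate, with BCC56535 nearer to BCC199 than to HUT2365. The log2 difference between BCC56535 and HUT2365 was -3.22 in glucose on day 3 (SE 0.17, adjusted p = 2.5e-10, limma) and -3.03 on day 6, and -2.56 and -2.27 in wheat bran-soybean (adjusted p = 1.7e-08 or less in each).

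acu04720_1 was the mirror of it. It ran from 639 to 2007 (median 1183) in BCC56535, from 153 to 218 (median 174) in HUT2365 and from 27.9 to 98.2 (median 49.9) in BCC199. Here HUT2365 was nearer to BCC199. The log2 difference was 2.91 in glucose on day 6 (SE 0.22, adjusted p = 1.6e-08, limma), and in wheat bran-soybean it was 2.62 (day 3) and 3.60 (day 6, SE 0.22, adjusted p = 1.4e-09).

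acu06807_1 was also higher in BCC56535. On day 3 it stood at 1349 and 962 against 322 and 277 in HUT2365 in glucose (log2 difference 1.93, SE 0.20, adjusted p = 6.9e-07, limma), and at 1363 and 1553 against 291 and 330 in wheat bran-soybean (log2 difference 2.23, adjusted p = 1.4e-07). In BCC199 its 8 libraries held 113 to 158. acu00673_1 was higher in BCC56535 on day 6, at 1188 and 815 against 210 and 202 in glucose (log2 difference 2.25, SE 0.35, adjusted p = 4.5e-05), and at 953 and 1102 against 133 and 162 in wheat bran-soybean (log2 difference 2.79, adjusted p = 5.1e-06). In glucose on day 3 acu04677_1 stood at 11490 and 17760 in BCC56535 against 3881 and 4383 in HUT2365 (log2 difference 1.79, SE 0.36, adjusted p = 5e-04).

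Towards HUT2365, acu01083_1 stood at 246 and 291 in BCC56535 and 895 and 751 in HUT2365 in glucose on day 3 (log2 difference -1.61, SE 0.26, adjusted p = 6.6e-05, limma). In wheat bran-soybean on day 6 it stood at 138 and 146 against 753 and 595 (log2 difference -2.23, adjusted p = 2.5e-06). acu00156_1 was lower in BCC56535 in glucose on day 6, at 116 and 177 against 647 and 795 (log2 difference -2.32, SE 0.40, adjusted p = 0.00014). The replicates of the strains did not overlap in any of these. acu05098_1 in wheat bran-soybean on day 3 differed with a wide spread, at 3487 and 5266 in BCC56535 against 14780 and 43440 in HUT2365 (log2 difference -2.56, SE 0.43, adjusted p = 8.7e-05). In glucose on day 3 it stood at 8902 and 11290 against 11490 and 11490, and did not pass (adjusted p = 0.72).

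The rule used no contrast of day 6 with day 3, and this change was called for the most members in BCC56535. The score did take the lowest and highest libraries over both days, which favours IDs that vary little between days. A share of calls below that of all IDs is again read with this limit. No test of the difference in day effect between strains was run. In BCC56535 in glucose 16 members rose and 7 fell (27.6% of all IDs called, 13.6% as rising and 14% as falling), whereas 8 rose and 10 fell in wheat bran-soybean (37.3% of all IDs, 17.7% and 19.5%). In glucose 20% of the members rose, above the share of all IDs, while the 10% that rose and 12.5% that fell in wheat bran-soybean lay below it. Among the 3899 IDs that met the level and medium conditions, 14.3% rose and 10.8% fell in glucose. In wheat bran-soybean 20.3% of them rose and 15.1% fell. When the fit held just the 4 libraries of the contrast, 0 members passed in glucose and 9 in wheat bran-soybean. In that glucose fit limma called 130 of all IDs. Of the members, 33 had an unadjusted p under 0.05 in the fit of all libraries, and voom weights on all libraries called 24. Leaving out 1 library gave 13 to 17 members in glucose and 7 to 16 in wheat bran-soybean. The 13 and 14 in glucose came without either day 3 replicate or without the day 6 replicate A, and the lowest in wheat bran-soybean, 7 and 9, without the day 3 replicate B and the day 6 replicate A.

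In BCC56535 in glucose, acu07091_1 rose from 293 and 139 on day 3 to 1219 and 973 on day 6 (log2 change 2.43, SE 0.48, adjusted p = 0.0014, limma), and acu05632_1 rose from 66.9 and 89.2 to 323 and 487 (log2 change 2.35, SE 0.43, adjusted p = 0.00084). acu01389_1 fell from 1016 and 1489 to 519 and 298 (log2 change -1.64, SE 0.49, adjusted p = 0.021), and acu05269_1 from 614 and 1080 to 304 and 278 (log2 change -1.48, SE 0.26, adjusted p = 0.00064). The days did not overlap in these 4, but none passed with only the 4 libraries compared (adjusted p = 0.082, 0.072, 0.12 and 0.13 in the same order). The fall of acu01389_1 also did not pass without the day 3 replicate B (adjusted p = 0.12) or the day 6 replicate B (adjusted p = 0.13, limma).

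In wheat bran-soybean, acu05098_1 rose in BCC56535 from 3487 and 5266 to 19800 and 17880 (log2 change 2.13, SE 0.43, adjusted p = 0.00097, limma), and acu04378_1 from 1133 and 1186 to 5287 and 4483 (log2 change 2.07, SE 0.27, adjusted p = 2e-05). acu05632_1 fell from 188 and 347 to 88.0 and 76.3 (log2 change -1.63, SE 0.43, adjusted p = 0.007), and acu00918_1 from 163 and 159 to 62.5 and 48.9 (log2 change -1.52, SE 0.40, adjusted p = 0.0067). acu05632_1 thus rose with time in glucose and fell in wheat bran-soybean. Its fall did not pass when replicate B of wheat bran-soybean on day 3 was left out (adjusted p = 0.1) or with only the 4 libraries compared (adjusted p = 0.053), and that of acu00918_1 did not pass without the day 6 replicate B (adjusted p = 0.052, limma).

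In BCC199 the day changed few members. In glucose 0 rose and 1 fell (2.17% of all IDs called, 0.94% rising and 1.23% falling), and 16 had an unadjusted p under 0.05. The 1 was acu00918_1, named because the count was 1, which lay outside the naming rule and went from 23.3 and 36.0 to 12.1 and 5.14 (log2 change -1.74, SE 0.40, adjusted p = 0.032, limma). Voom weights called 0 members there. In wheat bran-soybean 3 rose and 4 fell (13.5% of all IDs, 8.02% and 5.48%). That is 3.75% and 5% of the members, against 5.59% and 3.57% of the 3899 IDs that met the level and medium conditions. acu04677_1 rose from 603 and 578 to 2129 and 1984 (log2 change 1.80, SE 0.36, adjusted p = 0.0024), and acu01932_1 from 704 and 694 to 1540 and 1474 (log2 change 1.11, SE 0.22, adjusted p = 0.0023). acu00673_1 fell from 104 and 97.3 to 8.68 and 17.4 (log2 change -2.93, SE 0.35, adjusted p = 2.1e-05). In glucose 0 members were called without the day 6 replicate B and 2 without either day 3 replicate. In wheat bran-soybean 4 were called without either day 3 replicate, 3 with voom weights and 15 with only the 4 libraries compared.

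In HUT2365 the day also changed few members. In glucose limma called 0 members (0.0353% of all IDs, 3 IDs), 0 members had an unadjusted p under 0.05, and voom weights called 0. In wheat bran-soybean 1 member rose and 3 fell (8.77% of all IDs, 4.07% and 4.7%). That is 1.25% and 3.75% of the members, against 2.87% and 3.9% of the 3899 IDs that met the level and medium conditions. acu00160_2 rose from 413 and 439 to 828 and 789 (log2 change 0.92, SE 0.21, adjusted p = 0.012, limma). acu06256_1 fell from 238 and 325 to 121 and 141 (log2 change -1.09, SE 0.26, adjusted p = 0.017), and acu04980_1 from 2110 and 1891 to 1190 and 1188 (log2 change -0.75, SE 0.16, adjusted p = 0.0075). A fit of just these 4 libraries passed 0 members, and 1 or 2 passed without the day 6 replicate B or A. Neither acu00160_2 nor acu06256_1 passed without either day 6 replicate (adjusted p = 0.065 and 0.095 without A, 0.054 and 0.053 without B), and acu06256_1 did not pass without the day 3 replicate B (adjusted p = 0.099).

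**Figure D5:**
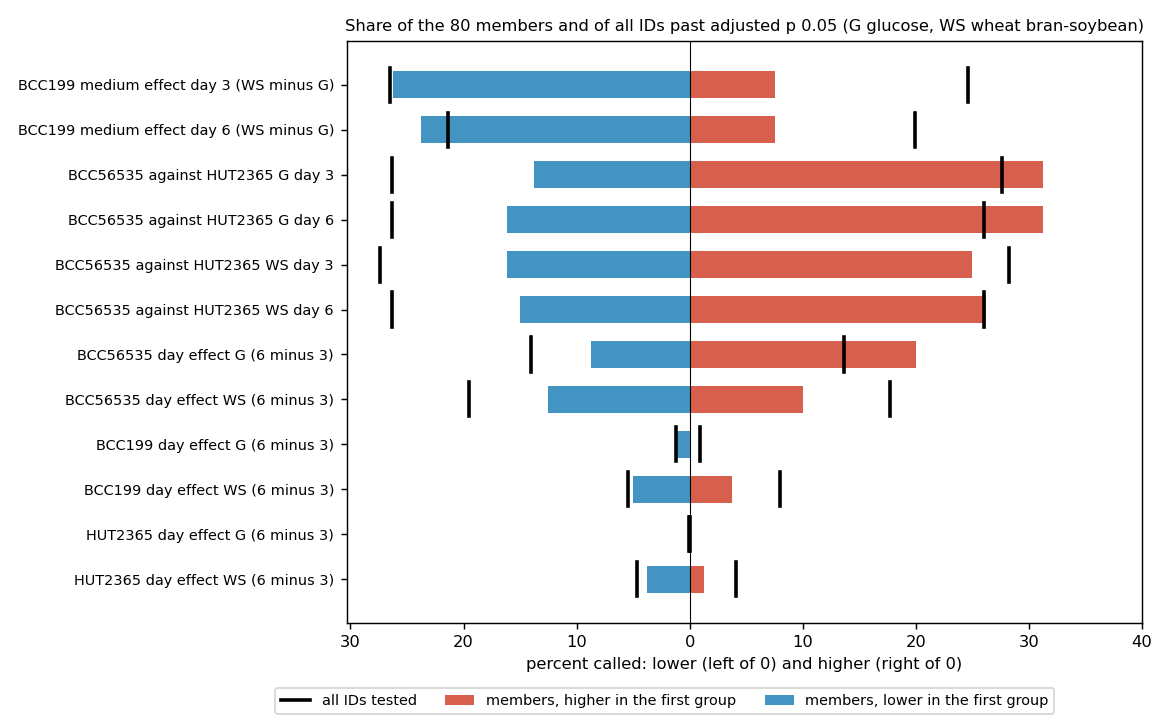
Percent of the 80 members (bars) and of all 8509 IDs tested (black marks) past adjusted p 0.05 in each of the 12 comparisons, lower to the left of 0 and higher to the right. In the BCC199 medium comparisons 7.5% of the members were higher on each day, against 24.6% and 19.9% of all IDs, while the shares of members that were lower, 26.2% and 23.8%, lie near those of all IDs.

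Over the 12 comparisons 7 members (8.75%) were called in none, against 4% of all IDs. Over the 6 day comparisons 40 (50%) were called in none, against 39.9% of all IDs. In different day comparisons 8 (10%) were called in both directions, against 8.76%. The rule favours IDs that vary little within a strain, so the shares called in none are read with this limit. The median SD of log2 values between replicates ran from 0.0832 (BCC199, wheat bran-soybean, day 3) to 0.241 (BCC56535, glucose, day 6) for the members, and from 0.0525 to 0.238 in the same groups for the 3899 IDs.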

How the data were processed

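The labels' protocols describe removal of ribosomal RNA, mRNA enrichment, NEBNext libraries with Illumina paired-end adapters, and sequencing on an Illumina platform. The submitters' processing notes name HISAT2 2.1.0, Picard and StringTie. No source used here gives their roles, the build, how reads were annotated, counted or assigned to a strand, or how counts were normalized. The deposited values are a signal that is never negative: read counts normalized by the authors plus a constant of 1. In each library the value minus 1 was a whole multiple of 1 step for 100.0% of IDs (tolerance 0.02 of a step), which gave reads per library and per ID.

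IDs entered the tests when 2 or more libraries reached a value of 10, which all 80 members did. For 24 libraries, limma 3.58.1 under R 4.3.3 modelled log2(value + 1) by 12 group means (12 residual degrees of freedom), with trended variance, two-sided contrasts and a Benjamini-Hochberg threshold of 0.05 over 8509 IDs. The fit was tested on simulated data. Fold changes on this scale understate the change of low IDs.

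Per comparison at most 2 members that rose and 2 that fell are named: the largest log2 changes among called members whose higher group averaged 100 or more, without overlap. Members with the highest scores or levels, at the edge of the set, or with a same-prefix ID high in BCC199 are also named. The members and lists were chosen with earlier results of these data known.

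Alternatives were other pseudocounts, no filter, rescaling by trimmed means of log ratios, fits of only the contrast's libraries, the replicate letter as a block, voom weights on recovered reads and each library left out in turn. Python 3.11.15, numpy 2.4.6, pandas 2.3.3, scipy 1.17.1 and matplotlib 3.10.9 were used.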

Additional observations from a re-analysis of the deposited data

Results flagged for a closer look

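Each result below was picked out because an effect was of different size on the 2 days or in the 2 media. The effects of the members named in the report were compared between days or media by a test of the difference itself (limma interaction contrasts, adjusted over 8509 IDs). In BCC199 the medium effect differed between day 3 and day 6 for 8 of the 80 members (10.4% of all IDs), and 5 named members were among them. The difference did not pass for acu02293_1, acu04319_1, acu05995_1 and acu03766_1 (adjusted p = 0.38, 0.26, 0.3 and 0.12). acu00673_1 rose with wheat bran-soybean on day 3 and did not pass on day 6 (day 6 minus day 3, log2 difference -3.25, SE 0.49, adjusted p = 0.00044). acu00959_1 (log2 difference -1.84, adjusted p = 0.0036) and acu00175_2 (-1.57, adjusted p = 0.032) fell by more on day 6. acu01932_1 (log2 difference 1.596, adjusted p = 0.0032) fell on day 3 and did not pass on day 6. acu04677_1 fell on day 3 (log2 change -1.12, adjusted p = 0.015) and stood higher in wheat bran-soybean on day 6 without passing (log2 change 0.91), with a difference of 2.03 (adjusted p = 0.017).

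In BCC56535 the change from day 3 to day 6 differed between media for 23 of the 80 members (32.4% of all IDs), 6 of them named. acu05632_1 rose in glucose and fell in wheat bran-soybean (wheat bran-soybean minus glucose, log2 difference -3.98, SE 0.61, adjusted p = 0.00022). acu05098_1 fell in glucose (log2 change -1.35, adjusted p = 0.027) and rose in wheat bran-soybean, with a difference of 3.48 (adjusted p = 0.00054). acu04378_1 rose in wheat bran-soybean, and its change in glucose did not pass (log2 difference 2.67, adjusted p = 0.00011). For acu01389_1 the difference was 2.06 (adjusted p = 0.033), for acu05269_1 1.20 (adjusted p = 0.021) and for acu07091_1 -1.81 (adjusted p = 0.049). The difference did not pass for acu00918_1 (adjusted p = 0.075, limma). In HUT2365 the change from day 3 to day 6 differed between media for 1 member (0.799% of all IDs), acu04980_1 (log2 difference -0.99, adjusted p = 0.045). It did not pass for acu00160_2 or acu06256_1 (adjusted p = 0.2 in each).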

How the results depend on the processing

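No result changed sign under the alternatives run, and of the named members' values 395 kept their side of the threshold and 23 lost the call. Counts of members called stayed within 1.5 times of the reported ones without a filter and after rescaling by trimmed means of log ratios. With only the contrast's libraries, 19 members were called between BCC56535 and HUT2365 in wheat bran-soybean on day 3 (33 in the full fit). The day effect then called 0 in BCC56535 glucose (23), 9 in BCC56535 wheat bran-soybean (18), 0 in BCC199 glucose (1), 15 in BCC199 wheat bran-soybean (7) and 0 in HUT2365 wheat bran-soybean (4). For the day in BCC199 glucose, no pseudocount gave 2, a pseudocount of 10 gave 0 and voom weights gave 0. Voom weights gave 3 in BCC199 wheat bran-soybean. The cause was not tested. Of the 80 members, a medium limit of 1.5-fold kept 41, against 78 after rescaling and 77 with a minimum mean of 50.

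Leaving out each library gave 18 to 26 members for the BCC199 medium effect on day 3 and 16 to 20 on day 6. Between BCC56535 and HUT2365 it gave 19 to 28 and 26 to 36 in glucose on day 3 and day 6, and 23 to 29 and 22 to 25 in wheat bran-soybean. For the day effect in glucose and wheat bran-soybean it gave 13 to 17 and 7 to 16 in BCC56535, 0 to 2 and 4 to 5 in BCC199, and 0 to 0 and 1 to 5 in HUT2365. A group left with 1 library was assumed to vary like the others.

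The replicate letters are shared by all groups. The deviations of same-letter libraries correlated at -0.43 to 0.22 over 66 pairs of groups (median 0.01). The correlation was over 0.1 in 11 pairs and under -0.1 in 8, so the letter marked no shift common to all groups. Whether libraries shared a batch in another way was not tested. With the letter as a replicate block, 28 and 26 members were called for the BCC199 medium effect on day 3 and day 6. Between BCC56535 and HUT2365 the block gave 37, 39, 33 and 34, and for the day effect 23 and 17 in BCC56535, 1 and 7 in BCC199, and 0 and 4 in HUT2365.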
